A study of Mus musculus with 6 samples.

Results

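The genes described here are 10 regulators of hematopoietic stem cell self-renewal, chosen by symbol: Hlf, Mecom, Prdm16, Mllt3, Mycn, Myc, Hmga2, Ikzf1, Ikzf2 and Msi2. All 10 had a row of their own among 47561 rows in the count tables, and all 10 passed the filter on low counts that left 16022 genes for testing. They were measured by bulk RNA sequencing of LT-HSCs (long-term hematopoietic stem cells), the rare cells that sustain blood formation for life, sorted from mouse bone marrow in 3 samples labelled as Piezo1 knockout (KO) and 3 control samples labelled as wild type. Piezo1 encodes a calcium-permeable ion channel opened by mechanical force. The titles of all 3 KO samples name Piezo1, whereas the genotype labels of KO replicates 2 and 3 read Piezo2 and Piezo3 knockout, and the titles were followed. The strain, age and sex of the mice, the deleted part of the gene and any driver of the deletion are details not given in the sources used here. Nor is it stated that each library came from a separate mouse, so the p-values reflect spread between these libraries, which may be technical. The comparison asks whether the transcripts of these regulators differ in LT-HSCs of KO mice.

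Self-renewal is the division of a stem cell that yields at least 1 daughter with the same potential. It rests on transcription factors that hold the stem cell program (Hlf, Mecom, Prdm16), on cofactors that keep its genes open or elongating (Mllt3, Hmga2), on growth regulators that set how readily the cell cycles and leaves the stem cell state (Myc, Mycn), on zinc finger factors that prepare lineage choice (Ikzf1, Ikzf2), and on control of messenger RNA (Msi2). Several were first known from leukemia, where they are overexpressed, fused or deleted.

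Total counts lay between 59435258 and 60027480 in the KO libraries and between 60589306 and 64653956 in the control libraries. Piezo1 itself had 4.28, 7.99 and 9.46 CPM (counts scaled to the library total, in the usual CPM unit) in KO libraries, against 17.0, 7.02 and 24.3 CPM in control libraries, so the library labelled control replicate 2 lay within the KO range. Its log2 fold change was -1.15 (SE 0.56), with an adjusted p = 0.508 in edgeR's quasi-likelihood test. Every direction below therefore rests on the labels as given. The LT-HSC marker genes were detected in every library, and their summed level over 12 genes was 1044 to 1341 CPM in KO and 1057 to 1586 CPM in control. Within this sum, 2 markers were higher in KO (Vwf, 2.83-fold, and Kit, 1.73-fold) and 2 lower (Ly6a, 0.376-fold, and Procr, 0.283-fold) at an unadjusted p under 0.05 in edgeR. Of all tested genes, 5.44% were higher and 5.59% lower at that threshold. None of these markers passed an adjusted p of 0.05 in edgeR, where the lowest was 0.259 for Vwf. Over 10 genes, granulocyte transcripts summed to 120 to 1176 CPM in KO, against 176 and 224 CPM in control replicates 1 and 2 and 12233 CPM in control replicate 3. Over 10 genes, erythroid transcripts summed to 28604, 11490 and 9419 CPM in KO and 6402, 4937 and 10265 CPM in control. The 4 globin genes among them were 6.96-fold to 8.45-fold higher in KO without overlap, whereas Car2 and Car1 were lower, at 0.625-fold and 0.430-fold. Megakaryocyte and platelet genes, 9 in all and 1 of them at 0 in every library, did not overlap in their sum, most of it Pf4, with 1699 to 2492 CPM in KO and 781 to 1071 CPM in control. Of the 8 tested, 6 lay higher in KO without overlap, where 10.7% of all tested genes did, and Gp9 and Ppbp overlapped. Their part in the values below was not tested, and in bulk RNA, fewer cells of a type and less RNA per cell cannot be told apart.

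None of the 10 regulators passed an adjusted p of 0.05 in edgeR's quasi-likelihood test, where 0% of all 16022 tested genes did, and their median log2 fold change (KO over control) was -0.03, beside 0.03 over all tested genes. At an unadjusted p under 0.05, 1 of 10 was higher in KO and 0 were lower in edgeR, where 11.0% of all tested genes passed in either direction. The single gene was Msi2. It was also the single regulator whose KO and control libraries did not overlap, where 10.7% of tested genes lay fully higher in KO, 8.76% fully lower and 19.5% either way. DESeq2 called 3.29% of the genes it tested at an adjusted p under 0.05 and 0 of the regulators, where Hmga2 was given no adjusted p. Log2 fold changes lay between -0.43 for Myc and 0.52 for Msi2. The counts of 1 and 0 are thus near the background and do not set the regulators apart from other genes.

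**Figure D1:**
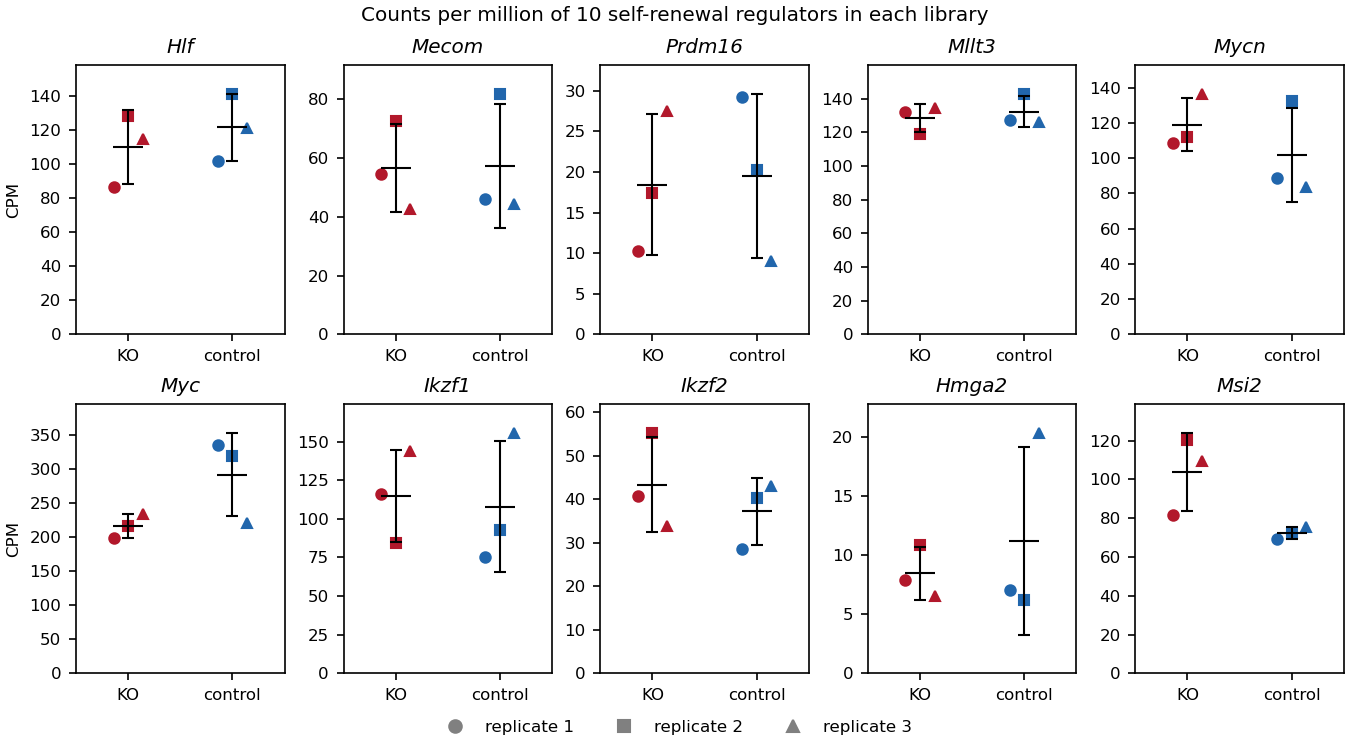
Level of each of the 10 regulators in CPM (linear axis from 0), with KO libraries at the left and control libraries at the right of each panel; symbols are replicates, and the black line and bar are the mean and SD of 3 libraries. Only for Msi2 do all 3 KO libraries, at 81.7 to 121 CPM, lie above all 3 control libraries, at 69.1 to 75.7 CPM.

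Msi2 encodes Musashi-2, an RNA-binding protein that controls the translation and stability of messenger RNAs in stem cells. It had 81.7, 121 and 109.5 CPM in KO libraries, against 69.1, 72.3 and 75.7 CPM in control libraries. The control libraries were close together, and KO replicate 1 lay nearest to them. The averages were 104 ± 20.0 CPM over KO and 72.3 ± 3.30 CPM over control libraries (SD, n = 3 each), a 1.44-fold difference with a 95% interval from 1.05 to 1.97. Its log2 fold change of 0.52 (SE 0.19) had an unadjusted p = 0.0304 and an adjusted p = 0.398 in edgeR's quasi-likelihood test, rank 1221 of 16022. Without KO replicate 2 the log2 fold change of Msi2 was 0.40 and without KO replicate 1 it was 0.65, and leaving out any of KO replicates 2 and 3 or control replicates 1 and 2 took the unadjusted edgeR p above 0.05, to at most 0.119. Over all settings tried the adjusted p of Msi2 ran from 0.161 in DESeq2 to 0.748 in edgeR without KO replicate 3.

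The length of the gene moved with such differences. Of the tested genes, 89.5% could be given a length, the summed length of all annotated exons, and were split by it into 4 bins of equal size. In the bin of the longest genes, from 6220 bases up, which holds Msi2 at 10405 bases, 10.7% of genes were higher in KO and 3.21% lower at an unadjusted p under 0.05 in edgeR, and the median log2 fold change was 0.27. In the second-shortest bin, from 2008 to 3796 bases, which holds Myc and Mycn, 3.71% were higher and 9.65% lower, with a median of -0.17. The shortest bin, up to 2007 bases, had 1.76% higher and 5.69% lower, with a median of -0.07. The remaining bin, from 3798 to 6219 bases, which holds Ikzf1, had 5.61% higher and 5.72% lower, with a median of 0.05. Of the 10 regulators, 7 were in the longest bin. Among these, Msi2 and Ikzf2 had positive log2 fold changes. Those of Hlf, Mecom, Prdm16, Mllt3 and Hmga2 were negative, at -0.14, -0.02, -0.08, -0.04 and -0.40. Mycn, in the second-shortest bin, was at 0.23. The part of length in the values of single genes was not tested.

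The promoter of Msi2 is shown because Msi2 was the regulator that did not overlap between the groups and because its start region holds the E-box letters CACGTG, the textbook binding sequence of Myc and Mycn with their partner Max. The sequence is from RefSeq (GRCm38.p6, minus strand, chr11:88718253-88718527), from 250 bases before the most upstream of its 3 listed starts to 25 bases after it, with E-box letters in capitals.
Msi2: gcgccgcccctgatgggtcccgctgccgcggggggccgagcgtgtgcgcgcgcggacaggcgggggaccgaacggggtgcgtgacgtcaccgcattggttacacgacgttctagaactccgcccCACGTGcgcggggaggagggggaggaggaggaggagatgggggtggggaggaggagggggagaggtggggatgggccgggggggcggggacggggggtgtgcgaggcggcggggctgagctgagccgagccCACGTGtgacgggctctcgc
The E-boxes begin at position -126 and at position 6, counted from the start. CACGTG reads the same on both strands, and 7.15% of all 32851 promoter windows of 300 bases hold it. Among the 8 regulators with a promoter in the table (all but Myc and Ikzf2), only Msi2 held it. Both strands were also searched for TTACGTAA (PAR bZIP factors such as Hlf), found in none of the 8, and for TGGGAA (Ikaros) and CCGGAA (ETS), found among them only in the Hlf window. These occur in 0.119%, 25.6% and 14.9% of all windows. A match is a description of letters and was not tied to binding.

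Among the factors of the stem cell program, Hlf, a PAR bZIP transcription factor that marks hematopoietic stem cells, had 86.4, 129 and 115 CPM in KO libraries, against 102, 141 and 122 CPM in control libraries. The groups overlapped, and the lowest library was KO replicate 1. The averages were 110.0 ± 21.5 CPM over KO and 122 ± 19.6 CPM over control libraries (SD, n = 3 each). The fold of 0.905 had a 95% interval from 0.641 to 1.28, and the adjusted p was 0.878 in edgeR's quasi-likelihood test.

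Mecom encodes the zinc finger factor EVI1 and its longer MDS1-EVI1 form, which long-term stem cells require, and gene counts cannot separate the forms. It had 54.6, 72.5 and 42.7 CPM in KO libraries, against 46.2, 81.7 and 44.2 CPM in control libraries. Replicate 2 was the highest library of each group, and the spread within each group exceeded the difference between the averages of 56.6 ± 15.0 CPM over KO and 57.4 ± 21.1 CPM over control libraries (SD, n = 3 each). The log2 fold change of Mecom was -0.02 (SE 0.32), with a 95% interval from -0.76 to 0.73. Leaving out control replicate 2 or KO replicate 3 turned it, to 0.30 and 0.14, and leaving out KO replicate 2 gave -0.24.

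Prdm16, the closest relative of Mecom and likewise a PR domain protein required for stem cell maintenance, had 10.3, 17.4 and 27.5 CPM in KO libraries, against 29.2, 20.2 and 9.02 CPM in control libraries. Both groups spanned nearly the same range, with averages of 18.4 ± 8.65 CPM over KO and 19.5 ± 10.1 CPM over control libraries (SD, n = 3 each). Its log2 fold change was -0.08 (SE 0.53), and its 95% interval, from -1.32 to 1.16, was wide. On the linear scale this interval covers folds from 0.400 to 2.24, so differences of that size in either direction are not excluded. Leaving out KO replicate 1 or control replicate 1 turned the log2 fold change of Prdm16, to 0.18 and 0.33, and leaving out KO replicate 3 gave -0.51.

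The windows at the starts of Mecom and Prdm16 share a run of 24 bases, which begins at position 27 of Mecom (chr3:30509710-30509733) and at position 10 of Prdm16 (chr4:154636841-154636864), both on the minus strand of GRCm38.p6 in RefSeq, and which occurs in the window of 0 other genes.
Mecom and Prdm16: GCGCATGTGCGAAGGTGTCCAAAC
How reads over this run were assigned to the 2 genes was not examined. Prdm16 made up 15.9%, 19.4% and 39.2% of the counts of both genes in KO libraries and 38.7%, 19.8% and 16.9% in control libraries. The groups overlapped.

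Mllt3, also called AF9, binds acylated histone tails and joins the DOT1L histone methyltransferase and the super elongation complex to active genes. It had 132, 119 and 135 CPM in KO libraries, against 127, 143 and 126 CPM in control libraries. All 6 libraries lay close together, and the groups overlapped. The averages were 129 ± 8.28 CPM over KO and 132 ± 9.20 CPM over control libraries (SD, n = 3 each). For Mllt3 the log2 fold change of -0.04 (SE 0.15) had an adjusted p = 0.964 in edgeR's quasi-likelihood test, and the 95% interval of the fold, from 0.764 to 1.24, was the narrowest of the 10 regulators.

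Myc and Mycn encode related basic helix-loop-helix factors that drive growth and ribosome production, and they can stand in for each other in blood stem cells. Myc was the regulator with the largest difference below 0. It had 198, 215 and 233 CPM in KO libraries, against 334, 318 and 221 CPM in control libraries. Control replicate 3, the library with the most granulocyte transcripts, lay within the KO range, and the other control libraries lay above all KO libraries. The averages were 216 ± 17.4 CPM over KO and 291 ± 61.2 CPM over control libraries (SD, n = 3 each), a fold of 0.740 with a 95% interval from 0.537 to 1.02. Its log2 fold change of -0.43 (SE 0.20) had an unadjusted p = 0.0625 and an adjusted p = 0.483 in edgeR's quasi-likelihood test. Without control replicate 3 the log2 fold change of Myc was -0.60, with an unadjusted p = 0.00503 and an adjusted p = 0.185 in edgeR, and DESeq2 on all 6 libraries gave an unadjusted p = 0.0278 and an adjusted p = 0.179. The adjusted p reached 0.774 in edgeR without control replicate 1.

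Mycn had 109, 112 and 136 CPM in KO libraries, against 88.9, 132 and 83.8 CPM in control libraries. Control replicate 2 lay within the KO range, and the groups overlapped. The averages were 119 ± 15.1 CPM over KO and 102 ± 26.7 CPM over control libraries (SD, n = 3 each), with a log2 fold change of 0.23 (SE 0.22) and an adjusted p = 0.792 in edgeR's quasi-likelihood test. Leaving out control replicate 2 gave a log2 fold change of 0.44 for Mycn, and leaving out KO replicate 3 or control replicate 3 gave 0.10.

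The share of Mycn within this pair did not overlap between the groups, although the level of each gene on its own did. Mycn made up 35.4%, 34.2% and 36.9% of the counts of Myc and Mycn together in KO libraries, against 21.0%, 29.4% and 27.5% in control libraries. The means were 35.5% ± 1.38 in KO and 26.0% ± 4.38 in control (SD, n = 3 each). This share needs no scaling between libraries, and it was looked at for the 3 pairs of relatives among the regulators after their levels were seen. It was not tested, and an exact two-sided permutation test of 3 against 3 libraries cannot give a p below 0.1. How often the shares of other gene pairs separate was not counted, and of single tested genes 19.5% did not overlap in either direction. The separation is thus no evidence of a shift in balance. Bmyc, a shorter relative that shares sequence with Myc, had 41.4, 42.4 and 37.3 CPM in KO libraries, against 52.6, 48.3 and 44.0 CPM in control libraries. These did not overlap either, where 8.76% of tested genes lay fully lower in KO. The log2 fold change of Bmyc was -0.26 (SE 0.19), with an adjusted p = 0.693 in edgeR's quasi-likelihood test. Reads that fit both Myc and Bmyc may have been counted for either.

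**Figure D2:**
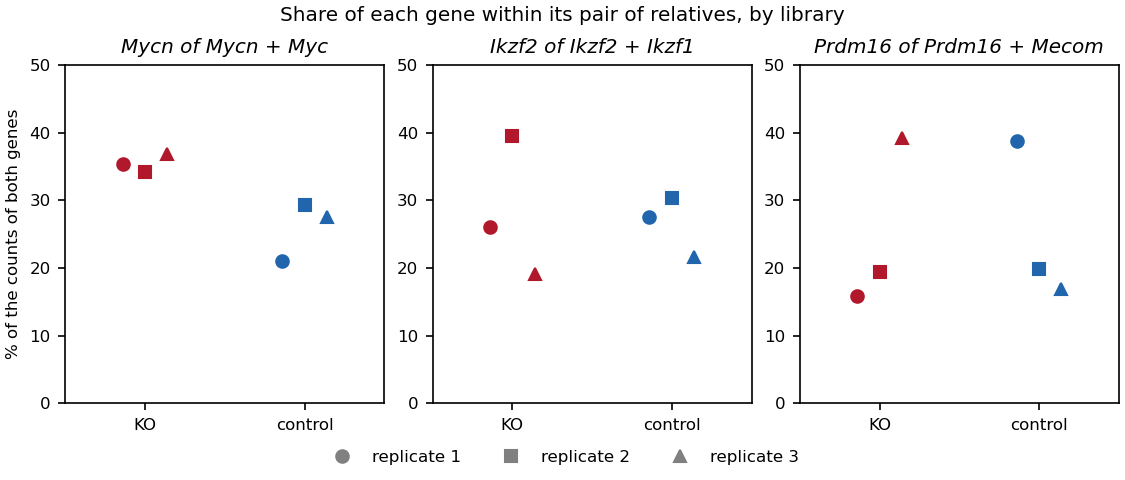
Share of Mycn, Ikzf2 and Prdm16 in the summed counts of each with its relative, in percent, for KO libraries at the left and control libraries at the right of each panel; symbols are replicates. The Mycn share was 34.2% to 36.9% in KO and 21.0% to 29.4% in control, whereas the groups overlapped for the Ikaros and PRDM pairs. How often such shares separate for other gene pairs was not counted.

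Ikzf1 encodes Ikaros, a zinc finger factor that recruits chromatin remodelling complexes and is required for lymphoid cells. It had 116, 84.6 and 144 CPM in KO libraries, against 75.1, 92.6 and 156 CPM in control libraries. Replicate 3 was the highest library of each group, and the highest of all was control replicate 3. The log2 fold change of Ikzf1 was 0.09 (SE 0.32). Leaving out control replicate 3 gave 0.45, and leaving out KO replicate 3, control replicate 1 or control replicate 2 turned the direction, to -0.11, -0.11 and -0.02.

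Ikzf2, the relative called Helios and best known from T cells, had 40.8, 55.3 and 34.0 CPM in KO libraries, against 28.6, 40.3 and 43.1 CPM in control libraries. The groups overlapped, and the log2 fold change was 0.22 (SE 0.27) with an adjusted p = 0.851 in edgeR's quasi-likelihood test. The value was 0.00 when KO replicate 2 was left out. Ikzf2 made up 26.0%, 39.5% and 19.1% of the counts of both Ikaros genes in KO libraries, against 27.6%, 30.3% and 21.7% in control libraries, and these shares overlapped too.

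Hmga2 encodes an AT-hook protein that bends DNA and supports self-renewal of fetal and young stem cells, where LIN28B relieves it from let-7 microRNAs. It was the lowest regulator, with 7.93, 10.9 and 6.54 CPM in KO libraries, against 7.03, 6.21 and 20.4 CPM in control libraries. Control replicate 3 held more than any other library, and the other 5 libraries lay between 6.21 and 10.9 CPM. The log2 fold change of Hmga2 was -0.40 (SE 0.57) and its interval the widest of the 10, from -1.75 to 0.94. Without control replicate 3 the direction turned, to 0.35. A processed copy, Hmga2-ps1, had 274, 96 and 0 counts in KO libraries, against 4, 0 and 87 counts in control libraries, and reads that fit both may have been counted for either.

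**Figure D3:**
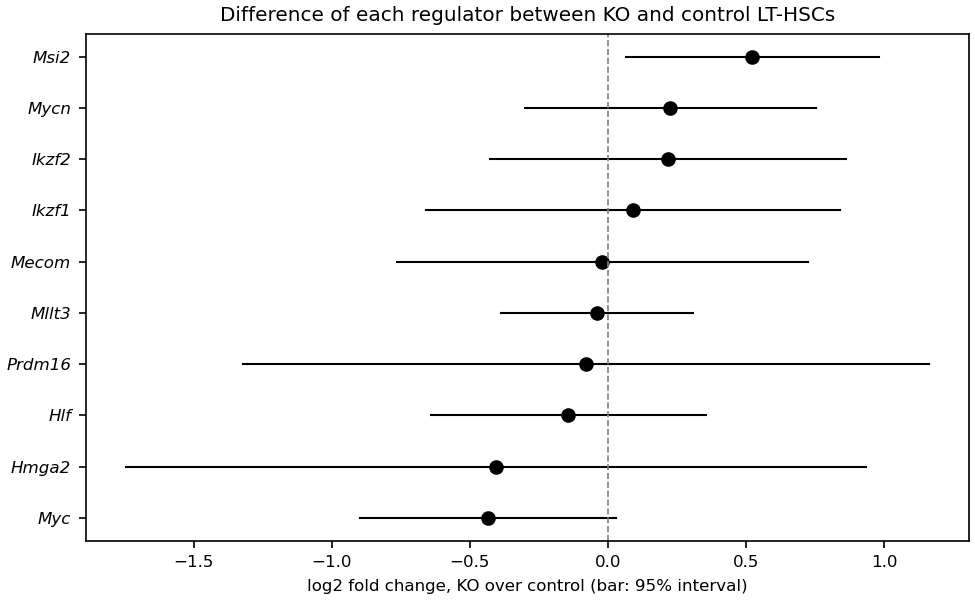
Log2 fold change of KO over control for each regulator (point) with its 95% interval (bar) from edgeR's quasi-likelihood fit, ordered from the highest to the lowest. The interval of Msi2, from 0.07 to 0.98, lies above 0 before adjustment for many genes, and those of the other 9 regulators include 0.

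**Figure D4:**
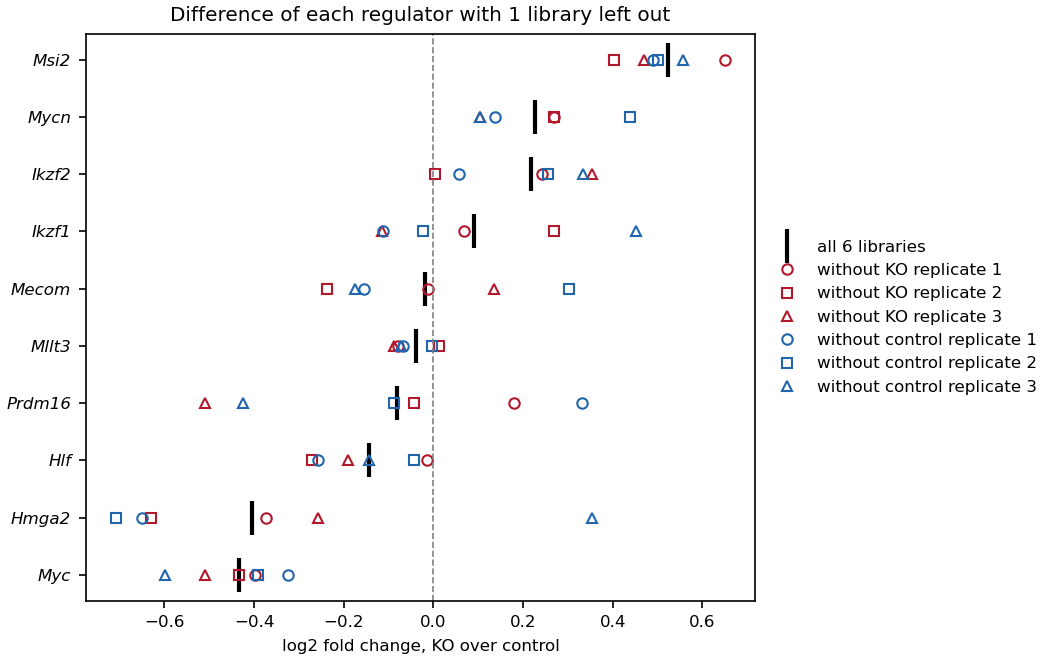
Log2 fold change of KO over control for each regulator with all 6 libraries (black bar) and with each library left out (open symbols, red for KO and blue for control libraries). Msi2, Mycn, Ikzf2, Hlf and Myc kept their sign in all 6 fits, and Hmga2 ran from -0.71 to 0.35.

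Levels were compared between regulators per kilobase of annotated exons, as CPM per kilobase. This length sums all annotated exons of a gene and can exceed that of any 1 transcript, so the order depends on it. Myc was highest, at 73.0 to 85.7 in KO and 81.4 to 123 in control, and no Mycn value, up to 41.4 in KO and 40.2 in control, reached it. Next came Ikzf1 with a mean of 19.9 ± 5.13 in KO and 18.7 ± 7.34 in control, Hlf with 16.5 ± 3.22 and 18.2 ± 2.93, and Mllt3 with 10.7 ± 0.690 and 11.0 ± 0.766 CPM per kilobase (SD, n = 3 each). Over the 6 libraries Mycn overlapped with Ikzf1 and Ikzf1 with Hlf, whereas Hlf and Mllt3 did not overlap. Msi2 followed with 9.99 ± 1.93 in KO and 6.95 ± 0.317 in control, Mecom with 4.55 ± 1.21 and 4.62 ± 1.70, and Ikzf2 with 3.73 ± 0.936 and 3.21 ± 0.663 CPM per kilobase. Prdm16, with 1.98 ± 0.928 in KO and 2.09 ± 1.08 in control, and Hmga2, with 1.25 ± 0.330 and 1.65 ± 1.17 CPM per kilobase, were lowest and overlapped with each other. Mllt3 overlapped with Msi2. Msi2 and Mecom did not overlap but nearly met, at 6.64 for the lowest Msi2 library and 6.57 for the highest Mecom library. Mecom, Ikzf2 and Prdm16 each overlapped with the next lower gene.

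Over the 6 libraries, the genes with the pattern most like that of a regulator, among 9755 genes averaging at least 5 CPM, reached Pearson r values of 0.982 to 0.998 with log2 CPM. They were Cd300a for Hlf, Csad for Mecom, Zc3h14 for Prdm16, Fastk for Mllt3 and Ddx58 for Mycn. For Myc the most alike was Fam32a, for Hmga2 Smdt1, for Ikzf1 Eef1aknmt, for Ikzf2 Tom1l2 and for Msi2 Rab3gap2. These are descriptions over 6 points that share their libraries, and the best of so many genes is close to 1 for any pattern. Between the regulators themselves r ran from -0.72 for Prdm16 with Hmga2 to 0.66 for Prdm16 with Myc.

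Of the closest family relatives of the regulators, 11 of 15 passed the filter and 0 had an unadjusted p under 0.05 in edgeR, although 1 was higher without control replicate 2 and 1 lower without KO replicate 1. Mycl and Msi1, the relatives of Myc and Msi2, had 0 counts in all 6 libraries, where a floor of 3 counts per library is 0.0440 to 0.0539 CPM. Hmga1 was as high in KO, at 55.9, 53.8 and 61.7 CPM, as in control, at 57.7, 54.3 and 60.4 CPM. The smallest unadjusted p-values among the relatives were those of Mllt1, Prdm10 and Nfil3, whose log2 fold changes were 0.86 for Mllt1 (SE 0.48), -0.69 for Prdm10 (SE 0.51) and -2.28 for Nfil3 (SE 2.15). Nfil3, which competes with PAR bZIP factors such as Hlf for sites, was at 2.20, 0 and 0 CPM in KO and at 3.10, 2.42 and 5.16 CPM in control.

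Genes of the MYC network, the partners and antagonists of Myc and Mycn, went both ways. Among 15 tested members, 3 higher and 3 lower genes in KO were counted at an unadjusted p under 0.05 in edgeR, beside 5.44% and 5.59% of all tested genes, and the median log2 fold change was 0.15. Mxi1, a Max partner that opposes Myc, had 32.2, 39.7 and 46.9 CPM in KO libraries, against 18.9, 23.3 and 16.9 CPM in control libraries. On the log2 scale Zbtb17, the factor MIZ1 through which Myc represses genes, differed by 1.11 (SE 0.41), and Ruvbl1, an ATPase cofactor of Myc, by -0.98 (SE 0.30). Max itself had 59.7, 39.2 and 35.5 CPM in KO, against 76.9, 44.9 and 42.7 CPM in control, and overlapped. No member passed the adjusted threshold in edgeR (adjusted p of 0.277 for Mxi1). Of the 15, 8 were in the longest bin, where 10.7% of genes were higher and 3.21% lower. Without KO replicate 2 or KO replicate 3 the counts were 1 higher and 1 lower, and without control replicate 1 there was 1 lower.

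Of 20 textbook target genes of Myc, 15 had a negative log2 fold change, beside 7666 of all 16022 tested genes, with a median of -0.22 for the targets. The targets were listed with earlier results of these data known, so their shares are descriptions. At an unadjusted p under 0.05 in edgeR, 5 were lower in KO and 0 higher, where 5.59% of all tested genes were lower and 5.44% higher. Cdk4, the kinase that carries cells out of G1, had 689, 569 and 558 CPM in KO libraries, against 1141, 873 and 870.5 CPM in control libraries, without overlap. Its log2 fold change was -0.67 (SE 0.18) with an adjusted p = 0.277 in edgeR's quasi-likelihood test. The others of the 5 were Srm, Nop56, Eif4e and Ldha, the last 2 named after their values were seen. Odc1 and Ncl, among the best known targets, had log2 fold changes of 0.01 and -0.12. With 1 library left out, 3 (without KO replicate 2) to 7 of the 20 were lower, and 1 was higher without control replicate 3. Of the 20, 3 were in the longest bin. In the second-shortest bin 9.65% of genes were lower, and how many of the targets it holds was not counted.

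Partners of Mllt3 in transcription elongation and in the DOT1L and MLL complexes were mostly above control. The log2 fold change was positive in 14 of the 15 genes tested, with a median of 0.62, and 5 genes were higher in KO and 0 lower at an unadjusted p under 0.05 in edgeR, where 5.44% of all tested genes were higher. In 7 of 15, or 46.7%, all KO libraries lay above all control libraries, where 10.7% of tested genes did. This list, like the others, was chosen with earlier results of these data known, so the contrast is a description and not a test. Aff3, a scaffold of the elongation complex, had 80.5, 53.8 and 58.5 CPM in KO libraries, against 23.6, 39.5 and 29.3 CPM in control libraries. Kmt2a, the histone methyltransferase MLL1 whose leukemic fusions often join it to AF9, had 109, 98.9 and 107 CPM in KO libraries, against 50.3, 83.5 and 71.2 CPM in control libraries. Mllt10, a DOT1L partner, had a log2 fold change of 0.67 (SE 0.22). Dot1l itself, the methyltransferase, had 29.9, 31.1 and 40.6 CPM in KO, against 8.83, 21.2 and 26.2 CPM in control, without overlap, and an unadjusted p = 0.0793 in edgeR. None passed the adjusted threshold in edgeR, where the adjusted p of Aff3 was 0.277. Of these 15 genes 10 were in the longest bin, in which 10.7% were higher, and the count of 5 was 1 without KO replicate 1 and 1 without KO replicate 3. It was 3 without control replicate 1.

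Corepressors of the PRDM and Ikaros factors gave 5 of 18 higher and 1 lower in KO at an unadjusted p under 0.05 in edgeR, beside 5.44% and 5.59% of all tested genes, with a median log2 fold change of 0.26. Gatad2b, a subunit of the NuRD remodelling complex that binds Ikaros, had 55.7, 54.4 and 56.9 CPM in KO libraries, against 14.1, 26.0 and 35.3 CPM in control libraries. On the log2 scale Ctbp1, the corepressor bound by EVI1, differed by 0.59 (SE 0.19), and Rbbp7, a histone-binding NuRD subunit, by -0.63 (SE 0.16). None of the 18 passed the adjusted threshold in edgeR, where the adjusted p of Rbbp7 was 0.277. Of the 18, 6 were in the longest bin, where 10.7% of genes were higher and 3.21% lower. The count of 5 was 1, 3 and 2 when KO replicates 1, 2 and 3 were left out in turn, 2 without control replicate 1 and 3 without control replicate 3. The single lower gene became 2 without control replicate 3.

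In the LIN28 and let-7 axis and among RNA-binding partners, 3 of 11 tested genes were higher in KO and 0 lower at an unadjusted p under 0.05 in edgeR, beside 5.44% and 5.59% of all tested genes. Of the 11, 9 were in the longest bin, where 10.7% of genes were higher. Tut4 and Tut7, enzymes that add uridines to let-7 precursors, differed by 0.95 (SE 0.29) for Tut4 and 0.72 (SE 0.24) for Tut7 on the log2 scale. Numb, a cell fate determinant whose messenger RNA Musashi proteins bind, had 10.5, 8.79 and 9.46 CPM in KO libraries, against 3.14, 4.81 and 2.19 CPM in control libraries, without overlap. For Numb the log2 fold change of 1.51 (SE 0.52) had an adjusted p = 0.378 in edgeR's quasi-likelihood test. Lin28b, the fetal regulator upstream of Hmga2, was low throughout, at 0.770 to 0.839 CPM in KO and 0.0990 to 1.20 CPM in control by library. Lin28a and Igf2bp1 had 0 counts in all 6 libraries. The count of 3 was 1 without KO replicate 2 and 0 without KO replicate 3.

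For stem cell transcription factors outside the 10 regulators the median log2 fold change was 0.49, with 18 of 22 tested genes positive, beside 8356 of all 16022. These factors too were listed with earlier results of these data known, so their shares are descriptions. At an unadjusted p under 0.05 in edgeR, 6 were higher in KO and 1 lower, where 5.44% and 5.59% of all tested genes were. Egr1, an immediate early transcription factor, had 53.6, 77.7 and 92.8 CPM in KO libraries, against 18.5, 19.9 and 23.7 CPM in control libraries, without overlap. For Egr1 the log2 fold change of 1.85 (SE 0.26) had an adjusted p = 0.255 in edgeR's quasi-likelihood test. Fli1, an ETS family factor, differed by 1.01 (SE 0.17) on the log2 scale. The 1 lower gene was Gfi1b, at 0.603-fold without overlap, named after its values were seen. The count of 6 was 3 without KO replicate 3. Of the 22 factors, 5, or 22.7%, lay higher in KO without overlap, where 10.7% of all tested genes did. Among the 8 tested megakaryocyte and platelet genes 6 did, as given above, and the part of that lineage in these values was not tested.

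**Figure D5:**
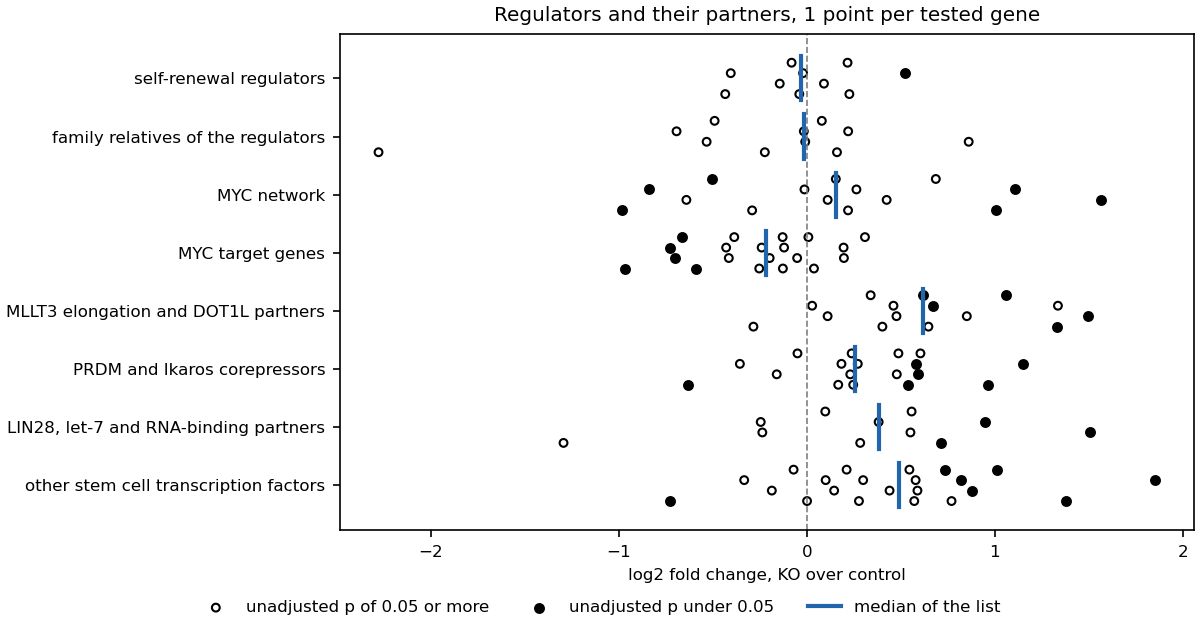
Log2 fold change of KO over control for each tested gene (1 point) of the 10 self-renewal regulators and of 7 lists of relatives and partners; filled points have an unadjusted p under 0.05 in edgeR, and blue bars are list medians. The regulators center on -0.03, the Myc targets on -0.22 and the Mllt3 partners on 0.62, and no point passed the adjusted threshold.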

How the data were processed

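Libraries came from a TruSeq RNA kit, per the labels' protocols. Whether counting used strand is a detail not given in the sources used here. The deposited tables hold raw counts, 1 per gene, over 47561 rows in each library; 2046 of the rows carry identifiers of a transcript assembler. HISAT2 2.1, featureCounts 1.6.4 and the mouse build mm10 appear in the submitters' processing notes. Without a stated strand, reads of overlapping or antisense genes (Prdm16os, Mecomos) cannot be told apart from those of Prdm16 and Mecom.

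The fit used edgeR 4.0.16 in R 4.3.3, with filterByExpr, TMM scaling and the quasi-likelihood F test of KO over control, with Benjamini-Hochberg adjustment over all 16022 tested genes and a threshold of 0.05. The SE is the absolute log2 fold change divided by the square root of F, and intervals use the degrees of freedom of the test. CPM are scaled by TMM. DESeq2 1.42.0 and limma-voom (limma 3.58.1) were alternatives. The steps were tested on simulated counts. Exon lengths are from GENCODE M21 (GRCm38) and promoters from RefSeq (GRCm38.p6); the files' gene models may differ from both. The regulators and the lists were chosen with earlier results of these data known. Named genes were the regulators, Piezo1 and up to 3 genes of each list by smallest p, of which 1 is not reported here; others (Bmyc, Hmga2-ps1, Mycl, Msi1, Hmga1, Max, Odc1, Ncl, Dot1l, Lin28a, Lin28b, Igf2bp1) were chosen after their values were seen.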

Additional observations from a re-analysis of the deposited data

How the results depend on the processing

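Settings other than the main ones were other scalings (DESeq2 size factors, upper quartile), no filter, a filter of 5 CPM in 3 libraries, DESeq2, limma-voom, a replicate block, and each library left out. It was not settled whether the replicate numbers pair the samples. The correlation of deviations was 0.0380, 0.0160 and 0.0333 for the same-numbered libraries and -0.0389 to 0.0079 for the others. The same-numbered values were thus the highest, but small. With the replicate block, the log2 fold change of Mecom turned to 0.0059 and 0 genes passed. No regulator passed the adjusted threshold in any of these fits, where DESeq2 gave Hmga2 no adjusted p. Of the genes, DESeq2 called 192 higher and 329 lower and the 5 CPM filter 1 lower, against 0 and 0; DESeq2 also put 1 regulator lower at an unadjusted p under 0.05, namely Myc. With 1 library left out, 0 to 1 genes were called higher (1 without control replicate 1), 562 to 1339 were higher and 573 to 1299 lower at an unadjusted p under 0.05, as were 0 to 1 and 0 to 1 regulators, and 7 to 24 higher and 6 to 11 lower list members. The log2 fold changes that changed sign in such fits ranged from -0.24 to 0.30 for Mecom, -0.51 to 0.33 for Prdm16, -0.088 to 0.012 for Mllt3, -0.71 to 0.35 for Hmga2 and -0.11 to 0.45 for Ikzf1; the cause was not tested. Counts per list under these settings were added after seeing the data. The regulators had at least 408 counts in every library.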
